A study of Homo sapiens with 12 samples.

Results

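Glycolysis is the cytosolic pathway that breaks glucose down to pyruvate and captures part of the released energy as ATP and NADH. Its last product can be reduced to lactate, which regenerates the NAD+ that the pathway needs. Most proliferating cell lines rely on it heavily, so its enzymes are among the most abundant soluble proteins and their mRNAs among the most heavily translated. The 10 genes described here encode enzymes of the pathway in the order of their reactions, namely GPI (ENSG00000105220), PFKL (ENSG00000141959), ALDOA (ENSG00000149925), TPI1 (ENSG00000111669), GAPDH (ENSG00000111640), PGK1 (ENSG00000102144), PGAM1 (ENSG00000171314), ENO1 (ENSG00000074800), PKM (ENSG00000067225) and LDHA (ENSG00000134333). They were chosen by a fixed list of Ensembl gene identifiers, 10 of the 19580 genes in the deposited table. All 10 passed the filter on low values (at least 1 RPKM in at least 3 libraries) that left 11510 genes for testing.

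The measurements are ribosome footprints, the stretches of mRNA that ribosomes protect from RNase I, in HAP1 cells, a near-haploid line made from the human leukaemia line KBM-7. Both agents together (4SU+UVA) meant 4-thiouridine (4SU) at 5 uM for 18 h followed by UVA at 6 kJ per square metre, the 4SU group received the nucleoside alone at that dose, the UVA group received the light alone, and untreated cells received neither. All 4 groups were wild type, harvest of irradiated cells followed 30 min of recovery, and each group held 3 biological replicates, 12 libraries in all. 4SU is a uridine analogue that is built into new RNA and can bond to nearby protein when UVA excites it, so the combined treatment was the one meant to create RNA-protein crosslinks. The labels do not say whether the line was cloned again for this work, and markers of cell identity could not be checked because the table holds no gene symbols. Library totals ran from 1899854 to 5832366 reads, with the lowest in 4SU+UVA replicate 2, and replicates of a group correlated across genes at r of 0.982 to 0.991.

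Values are RPKM, footprint reads divided by transcript length and by the library total. A change is a difference of group means of log2(RPKM + 0.5), tested with limma over all 11510 genes, and "rose" and "fell" stand for a Benjamini-Hochberg adjusted p under 0.05. Because of the division by the total, every level and change is relative to the rest of that library. Fewer cells and less RNA per cell cannot be told apart in such values, nor can less mRNA and fewer ribosomes on each mRNA.

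With both agents, 8 of the 10 glycolytic genes fell against untreated cells and none rose, whereas more genes in the whole table rose than fell. Over all genes 59% were called, 40.6% as higher and 18.4% as lower. The median change of the 10 genes was -0.36 on the log2 scale, and that of all genes was 0.23. The falls were modest, from -0.54 for GPI (to 0.687 of the untreated level) to -0.21 for PFKL (to 0.864), with TPI1 at 0.03 and PGAM1 at 0.43 not past the threshold. With each library centred on its median gene the median of all genes moved to 0.06, and with quantile normalisation to 0.04. Of all genes called, 68.8% were higher with the deposited scaling, 51.8% with centring and 50.9% with quantile normalisation. Under both alternatives 8 glycolytic genes fell, with medians of -0.53 and -0.50. Among these 8, changes moved by more than 1.5 times to -0.38 for PFKL, -0.42 for ALDOA and -0.49 for PGK1 with centring. With quantile normalisation only ALDOA did, to -0.44. PGAM1 moved to 0.25 with centring and 0.16 with quantile normalisation, and TPI1 to -0.14 and -0.04, none of them past the threshold.

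These genes span the range from abundant to rare. Averaged over the 12 libraries, ENO1 had 1999 RPKM and ranked 35th of all genes in the table, PKM had 1803 RPKM, GAPDH 1692 RPKM, ALDOA 1267 RPKM and LDHA 722 RPKM. A middle tier was made of PGK1 at 285 RPKM, GPI at 267 RPKM and TPI1 at 257 RPKM. PFKL stood at 42.03 RPKM and PGAM1 at 6.23 RPKM. In all 4 groups ENO1, PKM, GAPDH, ALDOA and LDHA kept that order, followed by the middle tier, PFKL and PGAM1. In 4SU+UVA cells and in 4SU cells the libraries of ENO1 and PKM overlapped, as did those of PKM and GAPDH, while in UVA cells and in untreated cells all 3 were apart. The middle tier changed its order, since TPI1 was the highest of its 3 genes with 4SU+UVA (266 RPKM, overlapping PGK1 at 249 RPKM) and the lowest in untreated cells (260 RPKM, apart from GPI at 293 RPKM).

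**Figure D1:**
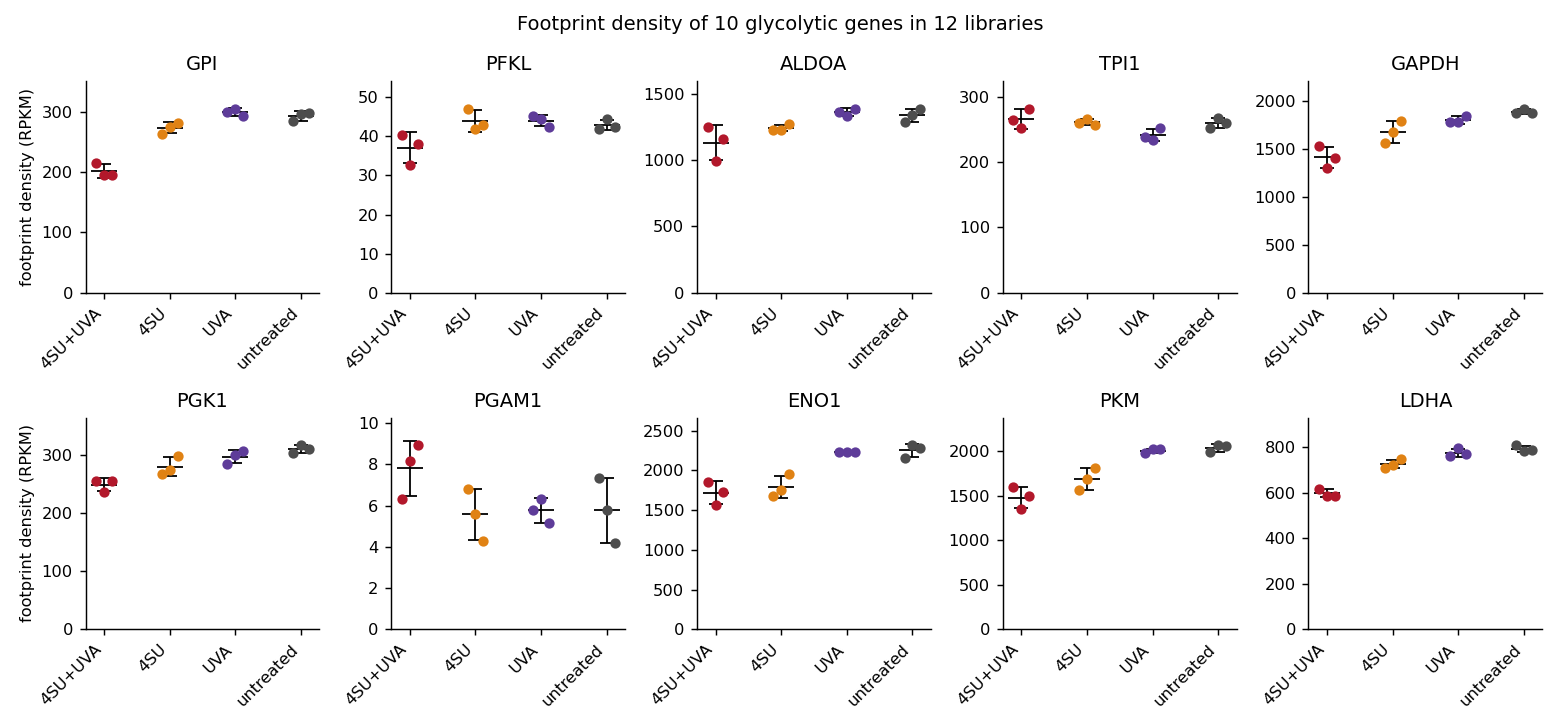
Footprint density in RPKM (vertical axes, each from 0 and on its own scale) of the 10 glycolytic genes in the 4 groups; points are the 3 libraries of a group and bars the mean ± SD. For 8 genes every 4SU+UVA library lies below every untreated one, while TPI1 and PGAM1 overlap.

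The genes are scattered over the genome, with only GAPDH and TPI1 on the same chromosome. By RefSeq's annotation of GRCh38.p14 (the deposited table was made on hg38, the same assembly), GPI spans chr19:34359718-34402413, PFKL chr21:44300053-44327373, ALDOA chr16:30064279-30070420, TPI1 chr12:6867420-6870948 and GAPDH chr12:6534517-6538371. PGK1 spans chrX:78104248-78129295, PGAM1 chr10:97426191-97433444, ENO1 chr1:8861000-8878686, PKM chr15:72199029-72231591 and LDHA chr11:18394563-18408425. The transcripts the authors counted ran from 1256 nt for GAPDH to 4812 nt for PGK1, with a median of 1791.5 nt against 2616.5 nt over all genes tested. RefSeq lists many processed copies of some of these genes, with 65 pseudogenes named after GAPDH and 13 after PGAM1, and 6 or fewer after each of the others. How reads that match several copies were assigned is not given in the sources used here, so the levels of PGAM1 and GAPDH are uncertain. PGAM1 also has a close protein-coding copy on the X chromosome, PGAM4. ALDOA, TPI1 and ENO1 each overlap another RefSeq gene (LOC112694756, SPSB2 and MIR6728), and whether counting used the strand is not given.

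Several promoters of this pathway are textbook targets of the hypoxia-inducible factor, whose binding element has the core ACGTG. That core was searched on both strands (as ACGTG or CACGT) in the 250 bases before the most upstream start that the RefSeq promoter table lists for each gene, which is the first base of the annotated gene for 5 of the 10. It was present for 5 of the 10 glycolytic genes (GPI, ALDOA, GAPDH, PGK1 and LDHA) and for 18.6% of 27305 genes with a listed promoter. LDHA had 3 separate places, beginning at positions -185, -87 and -73 from the start, and PGK1 had them at -202 and -183. The 250 bases upstream of these starts, the only ones among the 10 with more than 1 place, are shown 5′ to 3′ on the gene's strand with the cores in capitals (RefSeq, GRCh38.p14), LDHA from chr11:18394313-18394562, plus strand, and PGK1 from chrX:78103998-78104247, plus strand. A match of letters shows no binding, and the footprints measured here do not report transcription.
LDHA: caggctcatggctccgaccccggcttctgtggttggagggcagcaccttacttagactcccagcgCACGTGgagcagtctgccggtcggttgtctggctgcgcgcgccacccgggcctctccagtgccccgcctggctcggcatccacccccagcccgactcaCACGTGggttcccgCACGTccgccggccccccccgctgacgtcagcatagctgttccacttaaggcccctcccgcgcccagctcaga
PGK1: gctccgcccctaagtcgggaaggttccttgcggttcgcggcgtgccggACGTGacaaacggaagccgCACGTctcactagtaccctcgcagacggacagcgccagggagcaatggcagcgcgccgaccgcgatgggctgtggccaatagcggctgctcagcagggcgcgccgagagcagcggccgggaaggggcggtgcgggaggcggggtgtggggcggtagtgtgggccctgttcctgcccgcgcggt

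The enzymes of the upper pathway, which turn glucose phosphate into triose phosphates, did not move alike. GPI, the isomerase that makes fructose phosphate from glucose phosphate, had 215, 195 and 195 RPKM with 4SU+UVA and 264, 276 and 282 RPKM with 4SU. It had 301, 306 and 293 RPKM with UVA and 285, 297 and 299 RPKM in untreated cells. Every 4SU+UVA library lay well below the other 9, and UVA and untreated libraries overlapped. GPI fell with 4SU+UVA against untreated cells by 0.54 (SE 0.05, limma adjusted p = 1.61e-06), the steepest fall of the 10 genes with the deposited scaling and with median centring. With quantile normalisation PKM at -0.59 and GAPDH at -0.58 lay beyond GPI at -0.57. PFKL, the liver-type subunit of phosphofructokinase, the main control point of the pathway, had 40.5, 32.8 and 38.2 RPKM with 4SU+UVA and 47.1, 41.97 and 42.9 RPKM with 4SU. It had 45.4, 44.4 and 42.5 RPKM with UVA and 41.8, 44.4 and 42.5 RPKM in untreated cells. Only the 4SU+UVA libraries were lower, and narrowly so in replicate 1. The fall of PFKL was -0.21 (SE 0.08, limma adjusted p = 0.0407). It did not pass without 4SU+UVA replicate 2 (limma adjusted p = 0.181), without UVA replicate 2 (0.0526) or without untreated replicate 1, 2 or 3 (0.0590, 0.120 and 0.0771).

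ALDOA, the aldolase that splits fructose bisphosphate, had 1247, 989 and 1157 RPKM with 4SU+UVA and 1225, 1229 and 1271 RPKM with 4SU. It had 1362, 1332 and 1387 RPKM with UVA and 1283, 1340 and 1386 RPKM in untreated cells. The 4SU+UVA libraries spread more widely than those of any other group, and the highest of them overlapped the 4SU libraries. ALDOA fell with 4SU+UVA against untreated cells (log2 change -0.25, SE 0.07, limma adjusted p = 0.0057). TPI1, the isomerase that interconverts the triose phosphates, had 265, 252 and 282 RPKM with 4SU+UVA and 260, 266 and 256 RPKM with 4SU. It had 238, 234 and 252 RPKM with UVA and 252, 267 and 260 RPKM in untreated cells. These ranges overlap between 4SU+UVA and untreated cells, and the change of 0.03 had a 95% interval of -0.08 to 0.15 (limma adjusted p = 0.612), so it did not include a fall of the size seen for GPI.

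In the lower pathway, which yields ATP, NADH and pyruvate, 4 of 5 enzymes fell with 4SU+UVA against untreated cells. GAPDH, which oxidises glyceraldehyde phosphate and is widely used as a loading control, had 1527, 1301 and 1400 RPKM with 4SU+UVA and 1559, 1670 and 1785 RPKM with 4SU. It had 1779, 1775 and 1846 RPKM with UVA and 1868, 1918 and 1871 RPKM in untreated cells. The groups formed descending steps towards 4SU+UVA, each free of overlap with untreated cells, and the change with 4SU+UVA was -0.42 (SE 0.06, limma adjusted p = 3.36e-05). PGK1, the kinase of the first ATP-yielding step, had 256, 236 and 255 RPKM with 4SU+UVA and 268, 275 and 298 RPKM with 4SU. It had 285, 300 and 308 RPKM with UVA and 304, 317 and 311 RPKM in untreated cells. All 4SU+UVA libraries were below all others, and PGK1 fell by 0.32 (SE 0.06, limma adjusted p = 2.7e-04).

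ENO1, the enolase that makes phosphoenolpyruvate, had 1858, 1569 and 1724 RPKM with 4SU+UVA and 1678, 1748 and 1953 RPKM with 4SU. It had 2235, 2231 and 2237 RPKM with UVA and 2159, 2317 and 2282 RPKM in untreated cells. The libraries split into those with 4SU and those without, with or without light, and 4SU+UVA overlapped 4SU. Against untreated cells ENO1 fell with 4SU+UVA by 0.39 (SE 0.06, limma adjusted p = 1.16e-04). PKM, the pyruvate kinase of most tissues, has 1 row in the table, which names 1 transcript of 1806 nt. How reads of its other splice forms were counted is not given. PKM had 1594, 1350 and 1492 RPKM with 4SU+UVA and 1561, 1685 and 1814 RPKM with 4SU. It had 1982, 2020 and 2022 RPKM with UVA and 1990, 2066 and 2062 RPKM in untreated cells. The pattern was that of ENO1 with a somewhat larger gap between 4SU+UVA and 4SU, and the change was -0.47 (SE 0.06, limma adjusted p = 1.93e-05). LDHA, the lactate dehydrogenase subunit that reduces pyruvate, had 617, 587 and 586 RPKM with 4SU+UVA and 709, 721 and 747 RPKM with 4SU. It had 762, 795 and 770 RPKM with UVA and 807, 782 and 785 RPKM in untreated cells. Its replicates were tight, 4SU+UVA and 4SU each lay apart from all other groups, and LDHA fell with 4SU+UVA by 0.41 (SE 0.04, limma adjusted p = 3.36e-06).

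PGAM1, the mutase between both phosphoglycerates, had the lowest level of the 10 genes and, like TPI1, did not fall. It had 6.33, 8.18 and 8.93 RPKM with 4SU+UVA and 6.81, 5.61 and 4.30 RPKM with 4SU. It had 5.78, 6.34 and 5.17 RPKM with UVA and 7.33, 5.78 and 4.19 RPKM in untreated cells. These values rest on 28 to 63 reads per library, where every other member had at least 181. For the 28 reads of 4SU+UVA replicate 2 the exact 95% Poisson interval was 5.43 to 11.8 RPKM, which covers counting error only. The change with 4SU+UVA was 0.43 (SE 0.20, limma adjusted p = 0.0733) with overlapping groups. It passed without 4SU+UVA replicate 1 (0.56, limma adjusted p = 0.0373) and without untreated replicate 1 (0.60, limma adjusted p = 0.0207). Over libraries left out the change also ran as low as 0.23. It shrank to 0.25 with median centring and to 0.16 with quantile normalisation (limma adjusted p = 0.265 and 0.476). Its copies in the genome leave the level uncertain.

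**Figure D2:**
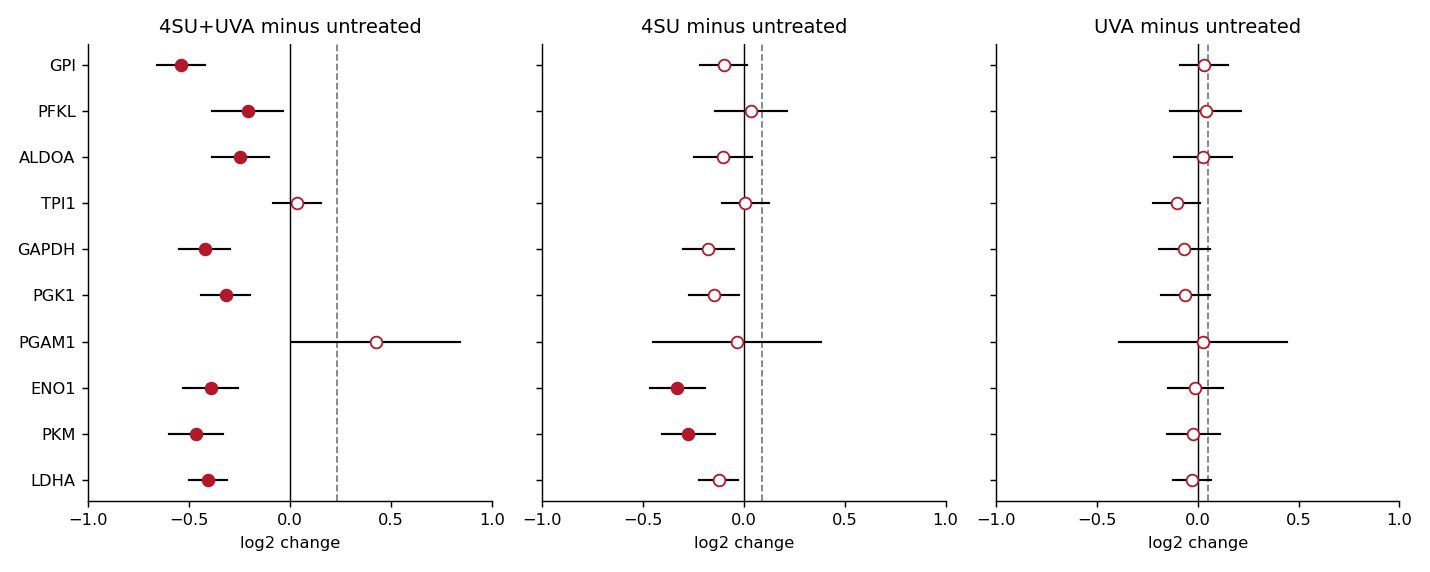
Log2 change of each gene against untreated cells with 4SU+UVA (left), 4SU (middle) and UVA (right); lines are 95% intervals from limma, filled points passed at adjusted p under 0.05 and the dashed line is the median of all genes tested. Filled points number 8 of 10 with 4SU+UVA, 2 with 4SU (ENO1 and PKM) and 0 with UVA.

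Of the 10 genes, 8 were lower with 4SU+UVA than in untreated cells without overlap of libraries, against 20.2% of all genes. These were the same 8 genes that fell, judged on the same libraries, so this is no separate result. Most of the glycolytic genes are more abundant than the typical gene, so abundant genes were set beside them. Among the 169 genes with a mean of at least 500 RPKM, 58.6% rose and 20.1% fell with 4SU+UVA, with a median change of 0.22. All 5 glycolytic genes of this kind (ALDOA, GAPDH, ENO1, PKM and LDHA) were among those that fell. The transcripts of this class had a median of 866 nt, shorter than every one of the 10 glycolytic transcripts, and the part of length in the difference was not tested. Within the 10 genes, Spearman's rho of the change was -0.03 with transcript length and -0.61 with mean RPKM (-0.47 without PGAM1), over genes that share the same libraries. GPI and PGK1 have the longest transcripts, at 4125 and 4812 nt, and changed by -0.54 and -0.32. PKM and TPI1, at 1806 and 1763 nt, changed by -0.47 and 0.03. By position among all genes tested, GPI lay at the 10.3rd percentile, PKM at the 12.4th, GAPDH at the 13.7th and LDHA at the 14.3rd, while TPI1 was at the 35.6th and PGAM1 at the 64.9th.

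**Figure D3:**
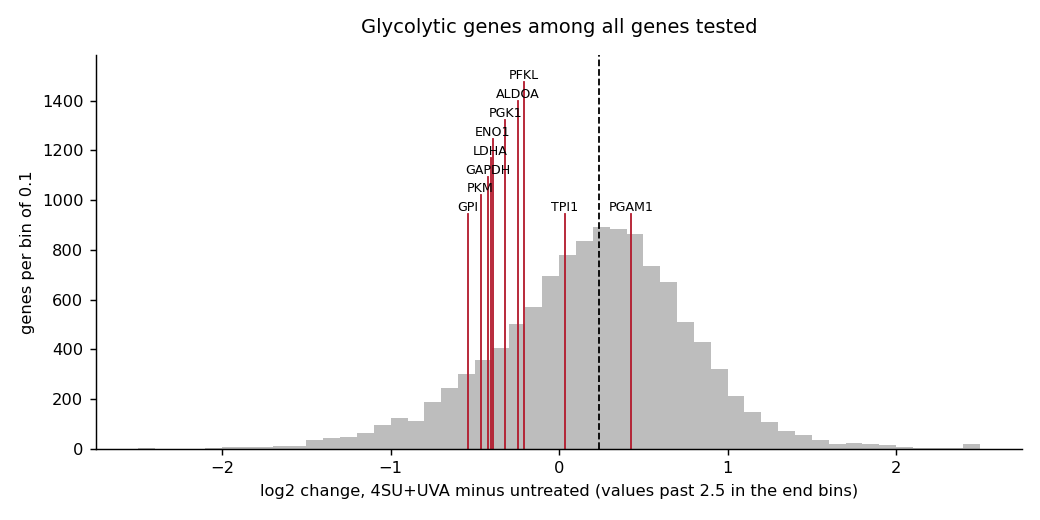
Number of genes (vertical axis) by log2 change of 4SU+UVA minus untreated (horizontal axis) for all 11510 genes tested, with the 10 glycolytic genes as red lines whose heights only separate the names and the median of all genes as a dashed line. Of the 10, 8 lie between -0.54 and -0.21, left of the median at 0.23, TPI1 lies at 0.03 and PGAM1 at 0.43.

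Together the 10 genes took 1.27 ± 0.0961% of all footprints with 4SU+UVA, 1.43 ± 0.0783% with 4SU, 1.63 ± 0.0151% with UVA and 1.65 ± 0.0372% in untreated cells (SD, n = 3 each). The libraries of 4SU+UVA and of 4SU were below those of both groups without 4SU, and UVA overlapped untreated cells. In the 4SU+UVA group, replicate 2 was the lowest for 8 of the 10 genes, the exceptions being PGAM1 and LDHA. That library also had the fewest reads, and the part of depth was not tested. Without it, 7 of the 10 genes still fell against untreated cells, PFKL being the one lost.

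**Figure D4:**
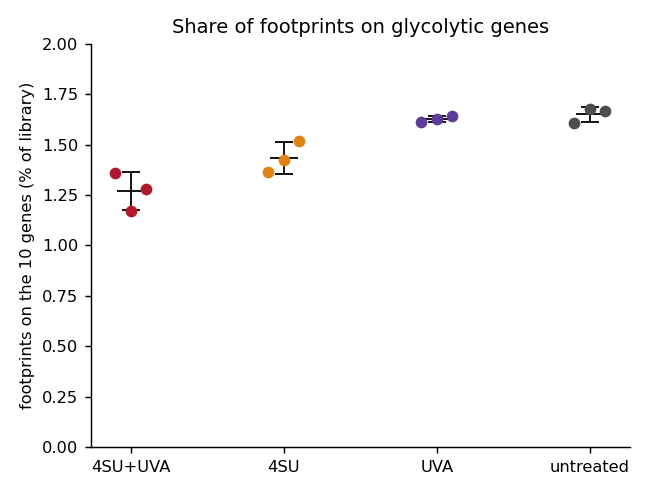
Share of each library's footprints that fell on the 10 glycolytic genes (percent, axis from 0); points are the 3 libraries per group and bars the mean ± SD. The 4SU+UVA libraries lie between 1.17 and 1.36%, below all untreated libraries at 1.61 to 1.68%.

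What 4SU does without light was asked by setting 4SU cells against untreated cells, a comparison that shares its untreated libraries with the previous one. ENO1 and PKM, next to each other in the pathway, fell, and no glycolytic gene rose. ENO1 averaged 1793 ± 143 RPKM with 4SU and 2253 ± 82.8 RPKM in untreated cells (SD, n = 3 each), a change of -0.33 (SE 0.06, limma adjusted p = 0.00466). PKM averaged 1687 ± 126 RPKM with 4SU and 2040 ± 43.2 RPKM in untreated cells (SD, n = 3 each), a change of -0.28 (SE 0.06, limma adjusted p = 0.00981) that did not pass without 4SU replicate 1 (limma adjusted p = 0.0527). Over all genes 14.4% were called, 11.3% as higher and 3.12% as lower, and of the 169 abundant genes 10.7% fell. Of all genes called, 78.3% were higher with the deposited scaling, 57.7% with quantile normalisation and 37.2% with median centring, so under centring more genes fell than rose. GAPDH, PGK1, LDHA, ALDOA and GPI had changes of -0.18, -0.15, -0.13, -0.10 and -0.10 that did not pass (limma adjusted p from 0.0612 to 0.319), although their 4SU libraries all lay below the untreated ones. Counting ENO1 and PKM, 7 of 10 genes were lower without overlap, where 10.1% of all genes and 27.2% of the 169 abundant genes were. The count of calls depended on single libraries and on scaling, with 1 gene without 4SU replicate 1, 3 without 4SU+UVA replicate 1 or 2 (GAPDH added, limma adjusted p = 0.0302 and 0.0317), 5 without 4SU replicate 3 and 6 with each library centred on its median gene. The calls over all genes moved too. They were 728 of 11475 genes without 4SU replicate 1 and 2049 of 11484 without 4SU replicate 3. Genes called lower went from 359 of 11510 with the deposited scaling to 1080 with centring. PFKL and TPI1 stood at 0.03 and 0.01, and both turned negative under that centring (-0.09 and -0.12). The more abundant the gene, the lower its change, with Spearman's rho of -0.92 over the 10 genes, a description of points that share their libraries. This direction was not particular to them, since the median change was -0.0062 for the 169 abundant genes and 0.091 for all genes.

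Light alone moved no glycolytic gene past the threshold. Against untreated cells the UVA changes ran from -0.10 for TPI1 to 0.04 for PFKL, with a median of -0.02, and over all genes 0.652% were called by limma, 0.278% as higher and 0.374% as lower. Of these calls 42.7% were higher, against 28.4% with median centring and 52.4% with quantile normalisation. At an unadjusted p under 0.05 none of the 10 passed either, in the same limma fit. The 95% interval was -0.15 to 0.13 for ENO1 and -0.12 to 0.07 for LDHA, so a fall with UVA of the size seen with 4SU+UVA lies outside both. TPI1 averaged 241 ± 8.94 RPKM with UVA and 260 ± 7.57 RPKM in untreated cells (SD, n = 3 each), and its libraries did not overlap. GAPDH averaged 1800 ± 39.6 RPKM with UVA and 1886 ± 28.1 RPKM in untreated cells (SD, n = 3 each), also without overlap, where 3.93% of all genes were lower in that way. Neither change passed (-0.10 and -0.07, limma adjusted p = 0.652 and 0.844). Of the 169 abundant genes 21.9% fell with UVA, and none of the 5 glycolytic genes of that class was among them. Quantile normalisation gave ENO1 a rise with UVA (0.30, limma adjusted p = 0.0477) that the deposited scaling did not show (-0.01).

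To follow light in the presence of 4SU, 4SU+UVA was set against 4SU. In this comparison 6 glycolytic genes fell and none rose, where 44% of all genes were called, 25% as higher and 19% as lower. Of all genes called, 56.8% were higher with the deposited scaling, 50.6% with median centring and 47.6% with quantile normalisation. GPI fell the most, at 202 ± 11.8 RPKM with 4SU+UVA and 274 ± 9.41 RPKM with 4SU (SD, n = 3 each), a change of -0.44 (SE 0.05, limma adjusted p = 1.86e-05). LDHA averaged 597 ± 17.7 RPKM with 4SU+UVA and 726 ± 19.5 RPKM with 4SU, a change of -0.28 (SE 0.04, limma adjusted p = 1.58e-04). GAPDH and PFKL changed by -0.25 each (limma adjusted p = 0.00386 and 0.0268), PKM by -0.19 (0.0216) and PGK1 by -0.17 (0.0252). Without 4SU+UVA replicate 2, 3 genes passed, and PFKL, PGK1 and PKM did not (limma adjusted p = 0.116, 0.0884 and 0.0972). PFKL was also lost without 4SU replicate 1 (0.0985), PGK1 without 4SU replicate 3 (0.102), and PKM without 4SU replicate 2 (0.0525) or 3 (0.0976). ENO1, the most abundant of the 10, averaged 1717 ± 145 RPKM with 4SU+UVA and 1793 ± 143 RPKM with 4SU (SD, n = 3 each), a change of -0.06 with a 95% interval of -0.20 to 0.07 (limma adjusted p = 0.45). ALDOA at -0.14, TPI1 at 0.03 and PGAM1 at 0.46 did not pass either (limma adjusted p = 0.0999, 0.716 and 0.0692), and ALDOA did without 4SU+UVA replicate 1 (-0.22, limma adjusted p = 0.0119). Quantile normalisation gave 8 falls, adding ENO1 (-0.30, limma adjusted p = 9.85e-04), outside the interval above, and ALDOA (-0.29, limma adjusted p = 0.00132). It also moved GAPDH to -0.42, PKM to -0.37 and LDHA to -0.44. PGAM1 passed as a rise without 4SU+UVA replicate 1, 4SU replicate 1 or untreated replicate 3 (limma adjusted p = 0.0378, 0.0335 and 0.0456). It did not with median centring (0.42, limma adjusted p = 0.0843) or quantile normalisation (0.36, limma adjusted p = 0.130).

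With all cells irradiated, 4SU+UVA was set against UVA, a comparison that shares its 4SU+UVA libraries with that against untreated cells. The 8 genes that fell against untreated cells also fell here, which is no independent repeat of that result. Over all genes 54.4% were called, 34.7% as higher and 19.8% as lower. Of these calls 63.7% were higher, against 53.9% with median centring and 50.7% with quantile normalisation. With the deposited scaling the largest change was that of GPI, at -0.57 (202 ± 11.8 RPKM with 4SU+UVA and 300 ± 6.19 RPKM with UVA, SD, n = 3 each; limma adjusted p = 9.78e-07), followed by PKM at -0.44, ENO1 and LDHA at -0.38 and GAPDH at -0.36. ALDOA changed by -0.27, PGK1 by -0.26 and PFKL by -0.25. GPI was also the largest with median centring, but with quantile normalisation ENO1 at -0.87, PKM at -0.82, GAPDH at -0.70 and ALDOA at -0.60 lay beyond GPI at -0.58. Of these 8, only PFKL was lost without a single library, namely 4SU+UVA replicate 2, UVA replicate 1 or UVA replicate 2 (limma adjusted p = 0.0918, 0.0633 and 0.0530). TPI1 was the only gene to rise, at 266 ± 15.1 RPKM with 4SU+UVA and 241 ± 8.94 RPKM with UVA (SD, n = 3 each), a change of 0.14 (SE 0.06, limma adjusted p = 0.0446). That call did not hold under 13 of 21 alternatives, among them each library centred on its median gene (0.05, limma adjusted p = 0.506). It was lost without 4SU+UVA replicate 1 or 3 (0.0675 and 0.182), UVA replicate 1 or 2 (0.110 and 0.144), untreated replicate 1, 2 or 3 (0.0531, 0.0570 and 0.0606) or 4SU replicate 2 (0.0544). PGAM1, at 0.40, passed as a rise without 4SU+UVA replicate 1 (0.53, limma adjusted p = 0.0493). It did not with median centring (0.31, limma adjusted p = 0.178) or quantile normalisation (0.21, limma adjusted p = 0.351). Relative to the median gene, which moved by 0.18, TPI1 lay at -0.04.

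Whether light acted differently in cells with and without 4SU was tested as an interaction, in which the change with light in the absence of 4SU is subtracted from that in its presence. The term passed for GPI and LDHA, both below the sum of the single effects, where 24.8% of all genes were called, 10.7% as higher and 14.1% as lower. For GPI the single effects added up to -0.07 while both treatments together gave -0.54, an interaction of -0.47 (SE 0.08, limma adjusted p = 5.14e-04). For LDHA the sum was -0.15 and the combined change -0.41, an interaction of -0.25 (SE 0.06, limma adjusted p = 0.00909) that did not pass without the variance trend (limma adjusted p = 0.069). ENO1 lay close to additive with the deposited scaling, with a sum of -0.34, a combined change of -0.39 and an interaction of -0.05 (95% interval -0.24 to 0.14, limma adjusted p = 0.722). The other 5 genes that fell had interactions of -0.28 (PFKL), -0.18 (GAPDH), -0.17 (ALDOA and PKM) and -0.11 (PGK1), none of which passed. These results depended on the scaling. With quantile normalisation ENO1 had the largest interaction of the 10 (-0.61, limma adjusted p = 1.92e-04), and PKM (-0.60, 5.72e-05), GAPDH (-0.54, 1.87e-04) and ALDOA (-0.45, 0.00162) passed as well, beside GPI at -0.51 and LDHA at -0.45. Under that setting 2936 of all 11510 genes were called, 1648 of them as lower. With median centring GPI and LDHA alone passed, and ENO1 stood at -0.01. PFKL, ALDOA and GAPDH passed without 4SU+UVA replicate 1 (limma adjusted p = 0.0437, 0.0437 and 0.0311), which made 5 genes. Among the 169 abundant genes 51.5% lay above the sum and 10.1% below it.

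**Figure D5:**
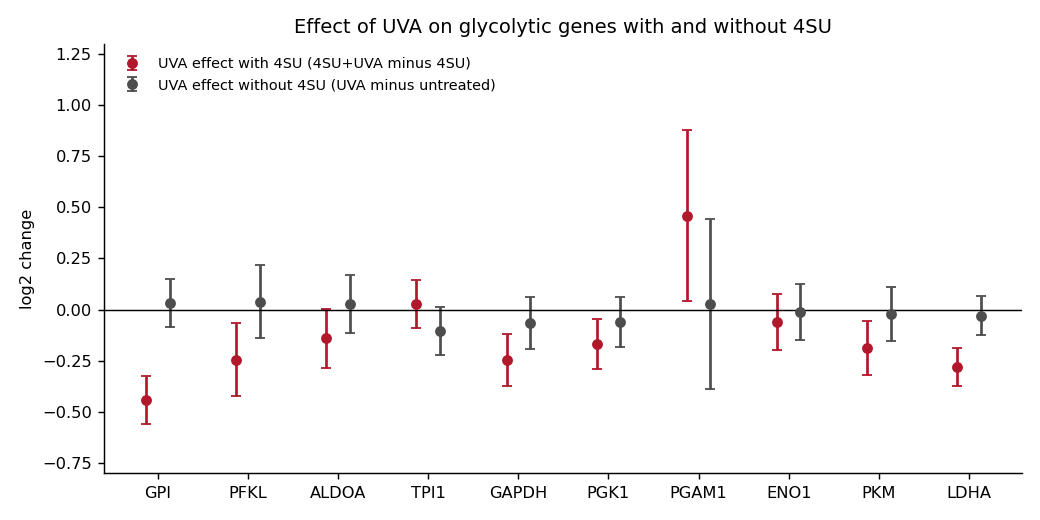
Log2 change between cells with and without UVA, in cells with 4SU (red, left of each pair) and without 4SU (grey, right) for the 10 glycolytic genes; bars are 95% intervals from limma. With the deposited scaling plotted here the gap is widest in the negative direction for GPI, at -0.44 against 0.03, and narrow for ENO1, at -0.06 against -0.01, an order that turned with quantile normalisation (interactions of -0.51 for GPI and -0.61 for ENO1).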

How the data were processed

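The authors deposited 1 table of RPKM values for 19580 genes in 12 libraries. Alignment used STAR 2.7.10a and the build was hg38, per the submitters' processing notes. Of counting, annotation and filtering no account is given in the sources used here. Groups and replicates came from the sample titles. Per the labels' protocols, footprints of 15-70 nt were amplified by PCR, and no molecular identifiers are mentioned.

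Members were matched by Ensembl identifier without its version. The members, gene lists and tests were chosen with earlier results of these data known. Of 4 other pathway lists and the cell markers fixed by symbol, and of genes with a like profile, none is reported, since the gene table pairs 0 Ensembl identifiers with symbols.

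Library totals, transcript lengths and reads were recovered from the RPKM steps, the smallest whole length that made all of a gene's values whole within 1e-06 reads. At totals moved by about 1%, 0 of 300 genes had such a length. The genes held 99.9% of each total. All values on reads rest on this step.

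The model was fitted by limma 3.58.1 (R 4.3.3; lmFit and eBayes, trend on) to log2(RPKM + 0.5), as 1 model of 4 group means, 8 residual degrees of freedom and 6 contrasts, two-sided, at a threshold of 0.05 after Benjamini-Hochberg adjustment over 11510 genes within a contrast. Intervals are 95% intervals of that fit. The fit and the recovery were tested on simulated data. Every member is named. The alternatives were pseudocounts of 0.1 and 1, no filter, a mean of at least 5 RPKM, median centring, quantile normalisation, no variance trend, the replicate number as a block, only the groups compared, and each library left out.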

Additional observations from a re-analysis of the deposited data

Results flagged for a closer look

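The effect of UVA differed between cells with and without 4SU for GPI and LDHA, by limma's interaction term. That is 2 of the 10 genes, where 24.8% of all genes were called for this term, 10.7% as higher and 14.1% as lower. For GPI the UVA effect was -0.44 with 4SU and 0.03 without it, a difference of -0.47 (limma adjusted p = 5.14e-04), and it passed under all 20 alternatives run. With quantile normalisation ENO1, PKM, GAPDH and ALDOA passed too, and the interactions of ENO1, PKM and GAPDH lay beyond that of GPI. Under that setting 2936 of all 11510 genes were called, 1648 of them as lower. For LDHA it was -0.28 with 4SU and -0.03 without it, a difference of -0.25 (limma adjusted p = 0.00909), which passed under 19 of 20 alternatives and not without the variance trend.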

How the results depend on the processing

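Of the 8 genes that fell with 4SU+UVA against untreated cells, 7 kept their call under all 21 alternatives and PFKL under 14. The count of genes called in either direction was 7 to 9 over libraries left out. It includes PGAM1 as a rise without 4SU+UVA replicate 1 or untreated replicate 1. With 4SU alone the count was 6 under median centring, 1 without the variance trend and 1 to 5 over libraries left out. Of all 11510 genes, 1720 were called under that centring and 1292 without the trend. For 4SU+UVA against 4SU the count was 3 with only those groups in the fit, 8 under quantile normalisation and 3 to 8 over libraries left out. That last range includes PGAM1 as a rise without 4SU+UVA replicate 1, 4SU replicate 1 or untreated replicate 3. Over all genes 4486 of 11337 were called with only those groups and 4959 of 11510 under quantile normalisation. With UVA alone the count was 1 under quantile normalisation, where 42 of 11510 genes were called. For the interaction the count was 6 under quantile normalisation, 1 without the trend and 2 to 5 over libraries left out. Of all 11510 genes, 2936 were called for it under quantile normalisation and 2585 without the trend. Median centring turned TPI1 to -0.137 with 4SU+UVA against untreated cells, -0.119 with 4SU and -0.0176 with 4SU+UVA against 4SU. It turned PFKL to -0.0911 with 4SU, and with UVA it turned GPI, PFKL, ALDOA and PGAM1 to -0.0499, -0.0427, -0.0548 and -0.0544. Quantile normalisation turned TPI1 to -0.0390 with 4SU+UVA against untreated cells and -0.0457 against 4SU, and PFKL to -0.0126 with 4SU. With UVA it turned PFKL to -0.0216, PGAM1 to -0.0505, GAPDH to 0.114, ENO1 to 0.303, PKM to 0.226 and LDHA to 0.0122. The cause of these changes was not tested.

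Over libraries left out, signs turned only for changes that had not passed. TPI1 ran from -0.00784 to 0.0737 with 4SU+UVA against untreated cells, -0.0151 to 0.0269 with 4SU and -0.0148 to 0.0667 with 4SU+UVA against 4SU. ENO1 ran from -0.122 to 4.66e-04 with 4SU+UVA against 4SU, -0.0415 to 0.00931 with UVA and -0.110 to 0.0118 in the interaction. PGAM1 ran from -0.228 to 0.142 with 4SU and -0.167 to 0.203 with UVA, PFKL from -0.0152 to 0.0677 with 4SU, and ALDOA from -0.00237 to 0.0533 with UVA. Deviations from group means correlated at r of -0.046 to 0.068 over 18 pairs of same-numbered libraries of different groups. Pairs with different numbers ran from -0.068 to 0.062, and 6 of the 12 libraries correlated best with one of their own number. Correlations this low cannot show whether same-numbered libraries were handled together. With the replicate block, 8 genes passed for 4SU+UVA against untreated cells, 2 with 4SU, 0 with UVA, 6 for 4SU+UVA against 4SU, 8 for 4SU+UVA against UVA (TPI1 lost, limma adjusted p = 0.0556) and 2 for the interaction.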

Other observations

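Ratios of genes within a library do not change when a whole library is multiplied by a factor. They were chosen after the values had been seen and carry no test. GPI over TPI1, both of the upper pathway, was 0.760 ± 0.0619 with 4SU+UVA, 1.05 ± 0.0454 with 4SU, 1.24 ± 0.0704 with UVA and 1.13 ± 0.0186 in untreated cells (SD, n = 3 each), so the order of both genes turned only with 4SU+UVA. GAPDH over TPI1 was 5.30 ± 0.416 with 4SU+UVA, 6.41 ± 0.4997 with 4SU, 7.46 ± 0.116 with UVA and 7.27 ± 0.136 in untreated cells. ENO1 over GPI was 8.51 ± 0.408 with 4SU+UVA, 6.54 ± 0.329 with 4SU, 7.45 ± 0.164 with UVA and 7.68 ± 0.121 in untreated cells, above the untreated ratio with both agents and below it with 4SU alone. GAPDH over ENO1 was 0.821 ± 0.00862 with 4SU+UVA, 0.933 ± 0.0211 with 4SU, 0.806 ± 0.0169 with UVA and 0.838 ± 0.0243 in untreated cells, and the 4SU+UVA, UVA and untreated libraries overlapped. PKM over LDHA was 2.48 ± 0.153 with 4SU+UVA, 2.32 ± 0.113 with 4SU, 2.59 ± 0.0437 with UVA and 2.58 ± 0.0986 in untreated cells. The 4SU+UVA and untreated libraries overlapped, while the 4SU libraries (2.20 to 2.43) lay below all UVA and untreated ones (from 2.54 and 2.46).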
